A study of Homo sapiens with 2 samples.

Results

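Binding of MYC was examined at the promoters of 10 genes of DNA replication licensing: MCM2, MCM3, MCM4, MCM5, MCM6, MCM7, CDC6, CDT1, ORC1 and PCNA. The genes were chosen by name, and a peak was assigned to a gene when its summit lay within 5 kb of 1 start site per gene on GRCh37. By this rule 10 of the 17659 MYC peaks were assigned to 7 of the 10 genes. CDC6, ORC1 and PCNA had no peak within 5 kb. The rule uses positions and not peak heights, although the genes were chosen with earlier results of these data known.

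Replication licensing loads the MCM helicase onto origins in G1, so that each origin fires at most once in a cell cycle. The origin recognition complex, of which ORC1 is a subunit, recruits CDC6 and CDT1, and these load the MCM ring in an inactive form. PCNA is the sliding clamp that holds DNA polymerases on the template after firing, and on DNA it also marks CDT1 for destruction. Many of these genes are known targets of E2F factors, and MYC, which binds DNA with MAX at E-boxes, is known to promote entry into S phase.

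The data came from 1 MYC ChIP-seq library and 1 input library of TET21 cells. These cells derive from the human neuroblastoma line SH-EP and carry a MYCN transgene that doxycycline turns off. Both libraries were from cells expressing wild-type MYC that had been kept in 1 µg/mL doxycycline for 7 days and fixed with 1% formaldehyde for 10 min. MYC was precipitated with 2 µg of a polyclonal antibody raised in rabbit, and whether it separates ectopic from endogenous MYC is not given in the sources used here. Nor do they name the promoter that drives MYC or say whether the cells are 1 clone. There is no library from cells without ectopic MYC here, so the peaks show where MYC lay in these cells and not what its expression changed. No second replicate was analysed here, so no difference between peaks or genes was tested. The intervals given are exact 95% Poisson intervals and cover counting error of the ChIP fragments only. The backgrounds of the peaks also rest on few input fragments, and their error was not estimated.

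Reference promoters of 8 of the 10 genes were at hand from RefSeq on GRCh38.p14, 11 windows in all because MCM7 has 3 starts and PCNA 2. Each window runs from 250 bases before a start to 50 after it. Whether these starts match the GRCh37 start sites used for the peaks was not checked. The windows of MCM2 and MCM7 are shown because they were the only members' windows with the E-box CACGTG. Those of MCM6 and MCM3 are shown as examples of genes with peaks but without it. CDT1 was a further such gene and is not shown. CDC6, PCNA and ORC1 are shown because they had no peak. For MCM7 and PCNA the outermost start is shown. Capitals mark CACGTG and the E2F-type words TTTCCCGC, TTTCGCGC, TTTGCCGC and TTTGGCGC, on either strand.
MCM2, chr3:127598161-127598460, plus strand: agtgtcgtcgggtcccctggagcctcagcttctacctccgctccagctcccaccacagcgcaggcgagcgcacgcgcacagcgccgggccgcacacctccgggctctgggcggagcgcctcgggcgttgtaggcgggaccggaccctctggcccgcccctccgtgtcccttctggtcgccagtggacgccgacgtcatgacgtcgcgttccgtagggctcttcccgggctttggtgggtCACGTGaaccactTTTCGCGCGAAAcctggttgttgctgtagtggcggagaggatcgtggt
MCM7, chr7:100101348-100101647, minus strand: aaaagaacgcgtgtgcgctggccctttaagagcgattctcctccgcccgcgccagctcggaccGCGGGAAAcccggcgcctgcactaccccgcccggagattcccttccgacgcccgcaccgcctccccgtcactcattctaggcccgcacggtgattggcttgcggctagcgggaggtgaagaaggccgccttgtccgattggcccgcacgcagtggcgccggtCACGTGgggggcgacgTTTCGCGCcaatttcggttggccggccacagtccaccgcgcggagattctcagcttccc
MCM6, chr2:135876394-135876693, minus strand: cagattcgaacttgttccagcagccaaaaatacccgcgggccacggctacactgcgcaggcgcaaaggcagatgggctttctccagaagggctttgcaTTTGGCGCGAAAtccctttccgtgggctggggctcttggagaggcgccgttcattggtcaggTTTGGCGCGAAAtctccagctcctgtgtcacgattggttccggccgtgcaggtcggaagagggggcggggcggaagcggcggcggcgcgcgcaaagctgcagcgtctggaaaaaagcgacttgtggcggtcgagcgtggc
MCM3, chr6:52284693-52284992, minus strand: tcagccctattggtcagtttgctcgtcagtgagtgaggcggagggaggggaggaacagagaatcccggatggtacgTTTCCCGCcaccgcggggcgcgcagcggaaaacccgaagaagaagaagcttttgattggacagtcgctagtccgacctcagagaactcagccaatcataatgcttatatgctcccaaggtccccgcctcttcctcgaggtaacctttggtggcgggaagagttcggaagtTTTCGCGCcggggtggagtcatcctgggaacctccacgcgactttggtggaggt
CDC6, chr17:40287629-40287928, plus strand: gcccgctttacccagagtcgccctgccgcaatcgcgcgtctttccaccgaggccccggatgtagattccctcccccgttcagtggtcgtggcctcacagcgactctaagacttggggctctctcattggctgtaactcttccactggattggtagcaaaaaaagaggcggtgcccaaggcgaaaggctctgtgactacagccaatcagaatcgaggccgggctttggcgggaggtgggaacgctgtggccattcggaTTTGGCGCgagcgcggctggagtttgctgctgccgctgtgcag
PCNA, chr20:5126573-5126872, minus strand: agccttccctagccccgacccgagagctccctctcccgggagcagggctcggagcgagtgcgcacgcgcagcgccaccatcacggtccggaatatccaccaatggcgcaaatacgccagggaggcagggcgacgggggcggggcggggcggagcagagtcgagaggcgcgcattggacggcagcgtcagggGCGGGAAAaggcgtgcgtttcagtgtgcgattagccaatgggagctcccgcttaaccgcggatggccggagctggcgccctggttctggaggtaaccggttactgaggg
ORC1, chr1:52404374-52404673, minus strand: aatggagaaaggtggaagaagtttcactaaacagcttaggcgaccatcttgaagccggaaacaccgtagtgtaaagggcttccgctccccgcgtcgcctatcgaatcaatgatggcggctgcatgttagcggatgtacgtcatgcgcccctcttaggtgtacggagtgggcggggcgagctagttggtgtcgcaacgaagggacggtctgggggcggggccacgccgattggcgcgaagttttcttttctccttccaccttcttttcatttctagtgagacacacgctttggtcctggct

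The E-box began 11 bases before the RefSeq start of MCM2 and 25 bases before the outermost RefSeq start of MCM7. Summit distances are counted from the GRCh37 start sites, so the 2 kinds of distance may not share an origin. CACGTG reads the same on both strands. It was present in 2 of the 11 windows, against 7.26% of all 35116 RefSeq windows and 8.34% of the 22199 windows of protein-coding genes. In both genes an E2F-type word lay close to it, beginning 2 bases after the start in MCM2 and 9 bases before it in MCM7. The windows of MCM3, MCM6 and CDT1, which had peaks, and of CDC6, ORC1 and PCNA, which did not, held no CACGTG. The looser form CANNTG was in 5 of the 11 windows, against 68.7% of all. No match says only that these letters are not in the window.

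E2F-type words were more widespread in this family. At least 1 was found in 7 of the 11 windows, belonging to 7 of the 8 genes, against 3.31% of all RefSeq windows. ORC1 was the gene without one. The MCM6 window held 2 copies of TTTGGCGC, beginning 152 and 90 bases before the start, and each overlapped GCGCGAAA, the reverse complement of TTTCGCGC. In MCM2, TTTCGCGC likewise overlapped its own reverse complement. Such a word was also present in CDC6, beginning 7 bases after the start, and in the outer PCNA window, beginning 59 bases before it, although neither start had a MYC peak within 5 kb. CCAAT or its reverse complement was in 9 of the 11 windows, against 34.6% of all. These belonged to 6 of the 8 genes, and they include every window of MCM7 and PCNA. The members' windows were rich in G and C, with a median of 67.7% against 58.7% over all windows, and the part of base composition in these shares was not tested.

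Of 30 other replication genes, including the remaining ORC subunits, the GINS and RFC complexes and replicative polymerases, 27 had a RefSeq window, 33 windows in all. CACGTG was in 6 of the 33, those of FEN1, GMNN, MCM8, ORC4, RPA1 and TIMELESS. This is 18.2%, the same share as in the members' windows, against 7.26% of all RefSeq windows. FEN1 is the flap endonuclease of lagging-strand synthesis, and GMNN encodes geminin, the inhibitor of CDT1. E2F-type words were in 11 of the 33, against 3.31% of all windows. The median G and C content of the 33 was 63.0%, against 58.7% over all windows, and its part in these shares was not tested. Start sites of these genes on GRCh37 were not used here, so their MYC peaks were not counted.

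MYC summits lay close to the start sites of 7 licensing genes. At a distance of up to 5 kb, 7 of 10 start sites had a summit, against 4.63% of all positions spanned by the peak list on chromosomes 1 to 22 and X. The same 7 genes had a summit within 1 kb, where 1.04% of positions did. This background counts positions of every kind. The corresponding rate over the start sites of all genes was not computed, since GRCh37 start sites of other genes were not used here. Widening the distance to 10 kb, where 8.6% of positions had a summit, brought in PCNA, and widening it to 50 kb brought in CDC6. ORC1 had no summit within 100 kb.

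**Figure D1:**
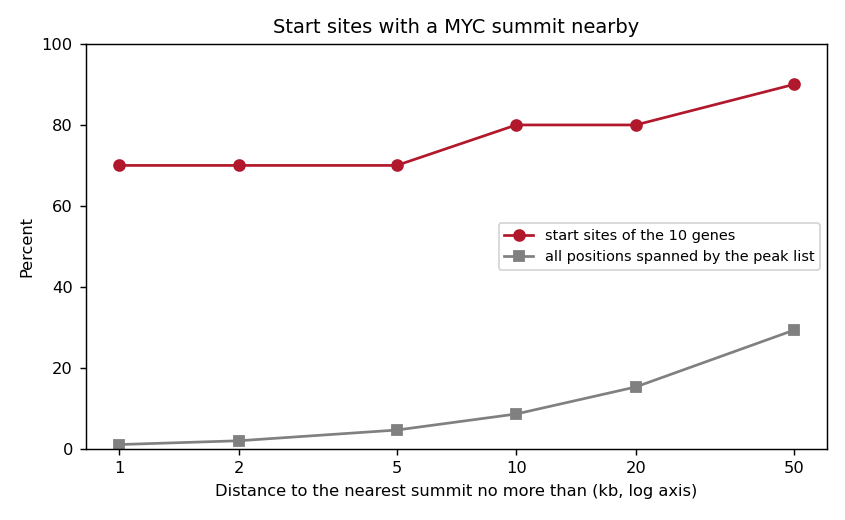
Percent of the 10 licensing-gene start sites (red circles) and of all positions spanned by the peak list (grey squares) with a MYC summit no farther than the distance on the horizontal log axis, in kb. The red line is flat from 1 to 5 kb at 7 of 10 genes, while the grey line reaches 4.63% at 5 kb and 29.3% at 50 kb.

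Of the 10 summits, 7 lay downstream of the start and 3 upstream. Counted in the direction of transcription, the summits nearest the start were 35 bp downstream in MCM5, 51 bp in MCM6, 103 bp in MCM2 and 130 bp in MCM3. They were 178 bp upstream in MCM7, 257 bp upstream in CDT1 and 783 bp upstream in MCM4. The most distant member summit was that of MCM7 at 1234 bp downstream. Just outside the limit were summits 6468 and 7157 bp downstream of the PCNA start and 7120 bp upstream of the MCM2 start, so no summit lay between 1234 and 6468 bp. Strands of MCM4 and MCM5 are from general knowledge of these genes. Whether a summit lay in an exon or an intron was not determined, since no GRCh37 annotation was used.

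**Figure D2:**
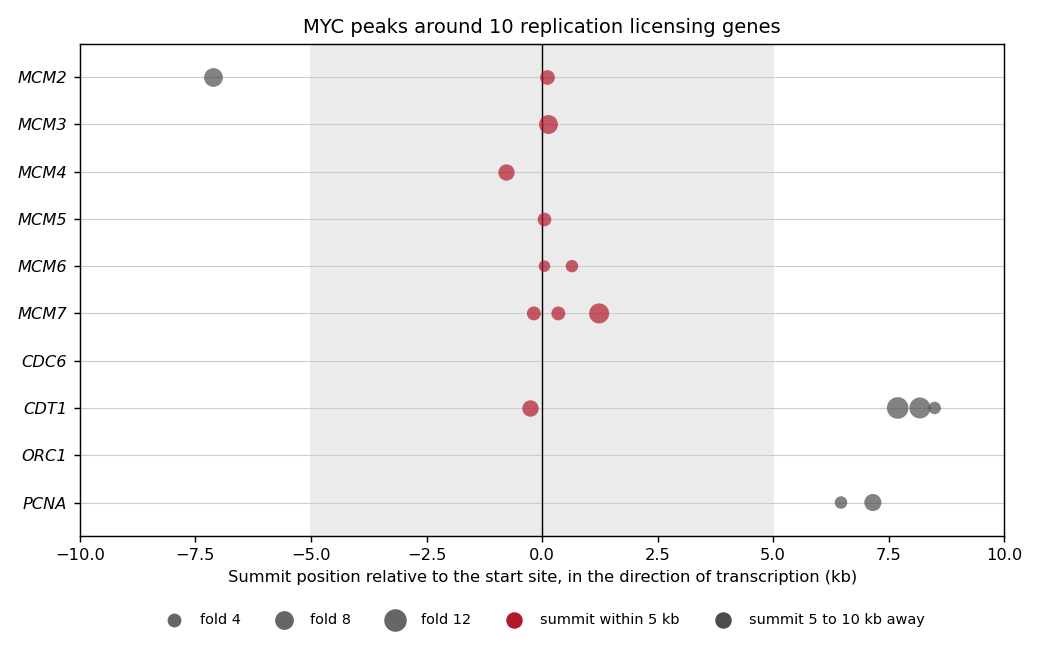
MYC summits within 10 kb of each gene's start site, in kb along the direction of transcription, with circle area proportional to fold over local background. Red circles lie within 5 kb (shaded) and grey ones 5 to 10 kb away. The red summits gather within 1.234 kb of the start, CDC6 and ORC1 have empty rows, and the grey summits belong to MCM2, CDT1 and PCNA.

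The MCM genes encode the 6 subunits of the replicative helicase ring, and each had at least 1 peak. Heights are given as ChIP fragments stacked over the summit, beside the local background expected from the input and the fold between them. Both fragment numbers were recovered from the authors' fold and p-value of each peak.

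MCM7 had 3 peaks, the most of any member. The strongest, at chromosome 7 99698073 to 99698399, had 29 ChIP fragments (19.4 to 41.6) over a background of 1.69, which makes a fold of 11.2, with a −log10 p of 26.3. This fold exceeded 88.6% of all peaks. The other two, at 99698958 to 99699449 and 99699541 to 99699693, had the same heights, 15 ChIP fragments each (8.40 to 24.7) against 1.98 expected, a fold of 5.37. One of these had a width of 492 bp, the widest of the member peaks, and the other of 153 bp, the narrowest. The strongest peak was the one farthest from the start, and its interval overlaps those of the weaker pair. Of all peaks in the list, 9.16% had at least 2 other summits within 2 kb, as these 3 do.

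RefSeq places 2 starts of AP4M1, which encodes a subunit of an adaptor complex of vesicle transport, on the opposite strand 246 bp upstream and 603 bp downstream of the outermost MCM7 start. It also places inner MCM7 starts 643 and 868 bp downstream of the outermost one. These distances are on GRCh38 and were not aligned with the GRCh37 peaks, so peaks were not divided between the genes. The region was also crowded, with 22 summits within 500 kb of the MCM7 start, against a median of 4 over positions 10 kb apart along chromosome 7.

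MCM3 had a single peak with a fold close to that of the strongest MCM7 peak. It lay at chromosome 6 52149318 to 52149656, with 22 ChIP fragments (13.8 to 33.3) against an expected 1.31, which makes a fold of 9.95, with a −log10 q of 16.2. It was an isolated site, since the nearest other summit was over 100 kb away. Among the peaks nearest each of the 7 starts, this was the highest fold.

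MCM4 had 26 ChIP fragments (17.0 to 38.1) at chromosome 8 48872534 to 48872855, more than any member peak except the strongest of MCM7. Its recovered background was also the highest of the members, 2.64, so its fold was 7.42. The error of that background was not estimated. The summit was 783 bp upstream of the MCM4 start. In the RefSeq gene table the PRKDC gene, which encodes the catalytic subunit of the DNA-dependent protein kinase and is read in the opposite direction, ends 805 bp before MCM4 on GRCh38. The peak therefore lay at about the distance at which RefSeq places the PRKDC start, and it was not assigned to 1 of the 2 genes.

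MCM2 had a peak of moderate height centred 103 bp downstream of its start, at chromosome 3 127317064 to 127317392. It had 13 ChIP fragments (6.92 to 22.2) against 1.32 expected and a fold of 6.03, which is near the middle of the list at the 43.7 percentile. Outside the limit, 7120 bp upstream, lay a peak with 19 fragments (11.4 to 29.7), a background of 1.03 and a fold of 9.85. TPRA1, on the opposite strand, has RefSeq starts 180 and 7678 bp upstream of the MCM2 start on GRCh38. Of the 2 peaks, the farther from MCM2 had the higher fold, with overlapping intervals of the ChIP count.

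MCM5 and MCM6 had the lowest peaks. MCM5 had 8 ChIP fragments (3.45 to 15.8) against 0.750 expected at chromosome 22 35795872 to 35796210, a fold of 5.14. MCM6 had a peak of 10 fragments (4.80 to 18.4) over 1.98 at chromosome 2 136633860 to 136634082, a fold of 3.69. Its other peak, at 136633355 to 136633514, had 9 fragments (4.12 to 17.1) over 1.32, a fold of 4.31. The MCM6 folds exceeded only 2.05% and 7.90% of all peaks, and their −log10 q values were 2.20 and 2.87, so both were among the weakest calls of the list. Another summit within 1 kb, as in this pair, was found for 29.8% of all peaks.

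**Figure D3:**
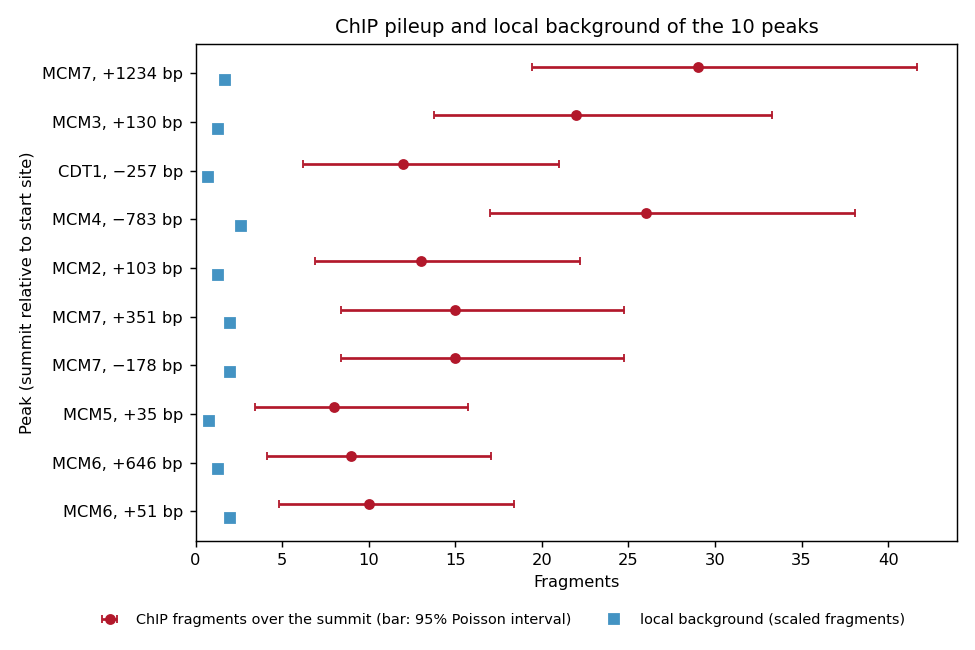
ChIP fragments over the summit (red circles, bars for exact 95% Poisson intervals) and local background in scaled fragments (blue squares) for the 10 member peaks, ordered by fold from the top. ChIP fragments run from 8 at MCM5 to 29 at MCM7 and the background from 0.731 at CDT1 to 2.64 at MCM4. All ChIP intervals lie above their background, but peaks were called for exceeding it, so this is no separate result.

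The loading factors differed in whether they had a peak. CDT1, which brings the MCM ring to origins, had a peak at chromosome 16 88869825 to 88870256 with 12 ChIP fragments (6.20 to 21.0) against 0.731 expected, which makes a fold of 7.51, with a −log10 q of 8.31. Its background was the lowest of the members, so its fold was close to the 7.42 of MCM4 on fewer fragments. Higher peaks lay 7695 and 8175 bp downstream of the CDT1 start, with 23 fragments (14.6 to 34.5) and a fold of 13.02 and with 24 fragments (15.4 to 35.7) and a fold of 12.3. A weaker one lay 8494 bp downstream with a fold of 4.31. CDT1 is 5470 bp long in RefSeq, so these 3 peaks lay beyond its end if its length is alike on GRCh37. RefSeq places the start of APRT, an enzyme that salvages adenine, on the opposite strand 8139 bp downstream of the CDT1 start on GRCh38.

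CDC6, the ATPase that works with CDT1 in loading, had no peak within 5 kb. Its nearest summit was 26.9 kb downstream, with 12 ChIP fragments, a background of 0.928 and a fold of 6.74, and 2 more followed at 28.8 and 30.4 kb with folds of 4.74 and 6.03. RefSeq gives CDC6 a length of 16779 bp and lists RARA as the next gene. The region was not poor in peaks, with 19 summits within 500 kb against a median of 12 over positions on chromosome 17.

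ORC1, the subunit of the origin recognition complex, was the member farthest from any MYC peak. The nearest summit was 149.0 kb upstream, a peak of 27 ChIP fragments against 0.787 expected, a fold of 15.7. There were 5 summits within 500 kb, equal to the chromosome 1 median of 5. On GRCh38 RefSeq places a start of PRPF38A, a splicing factor, 179 bp upstream of the ORC1 start on the opposite strand. Opposing starts within 1 kb upstream were also listed for PCNA (CDS2, 386 bp upstream of the outer start), MCM2, MCM7 and MCM4 (PRKDC, at 805 bp). How often such starts occur over all genes was not counted, and a link with MYC peaks was not tested.

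PCNA had no peak within 5 kb of the start site used, but 2 beyond that. They lay at chromosome 20 5100524 to 5100838, with 12 ChIP fragments (6.20 to 21.0), a background of 1.98 and a fold of 4.36, and at 5099978 to 5100370, with 13 fragments (6.92 to 22.2), a background of 0.712 and a fold of 8.18. Their summits were 6468 and 7157 bp downstream of the start. RefSeq gives PCNA another start 6664 bp downstream of the outer one on GRCh38, and it gives PCNA-AS1, an antisense RNA, a start on the opposite strand 7036 bp downstream. If the start site used is the outer start, PCNA had no peak there and peaks at about the distance of its inner start. Its place among the genes without a peak rests on which start is used.

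The list holds only called peaks, so it gives no amount of MYC at the starts of CDC6, ORC1 or PCNA. At the lowest background in the list, 0.683 fragments, the weakest peak called had 5 ChIP fragments and a fold of 3.56. The limit differs with the local background, and the background at these 3 starts was not recovered, so what could have been called there is unknown.

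The licensing-gene peaks were of ordinary height within the list. Their median fold was 5.70 with a range of 3.69 to 11.2, against a median of 6.40 over all peaks, and 4 of 10 exceeded that median, as 49.8% of all peaks did. Their median pileup was 14 ChIP fragments against 13 over all peaks, and 5 of 10 exceeded 13, as 45.3% of all peaks did. Their median background was 1.503 fragments against 1.125. Taking the most significant peak of each of the 7 genes, the median fold was 7.42, but choosing 1 of several peaks favours higher values in MCM6 and MCM7. Of these 7 peaks 1, that of MCM7, had a fold of at least 10, against 15.4% of all peaks. A fold of at least 8 was seen for 2, against 28.9% of all peaks, and a fold of at least 15 for 0, against 4.37%.

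Most of these peaks were wider than the typical peak of the list. The median width was 328 bp over the 10 peaks, against 226 bp over the list, and 7 of 10 were wider than the list's median, as were 49.7% of all peaks. The exceptions were both MCM6 peaks, at 223 and 160 bp, and the MCM7 peak of 153 bp. MCM5, with the fewest fragments, had a width of 339 bp, the same as MCM3.

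**Figure D4:**
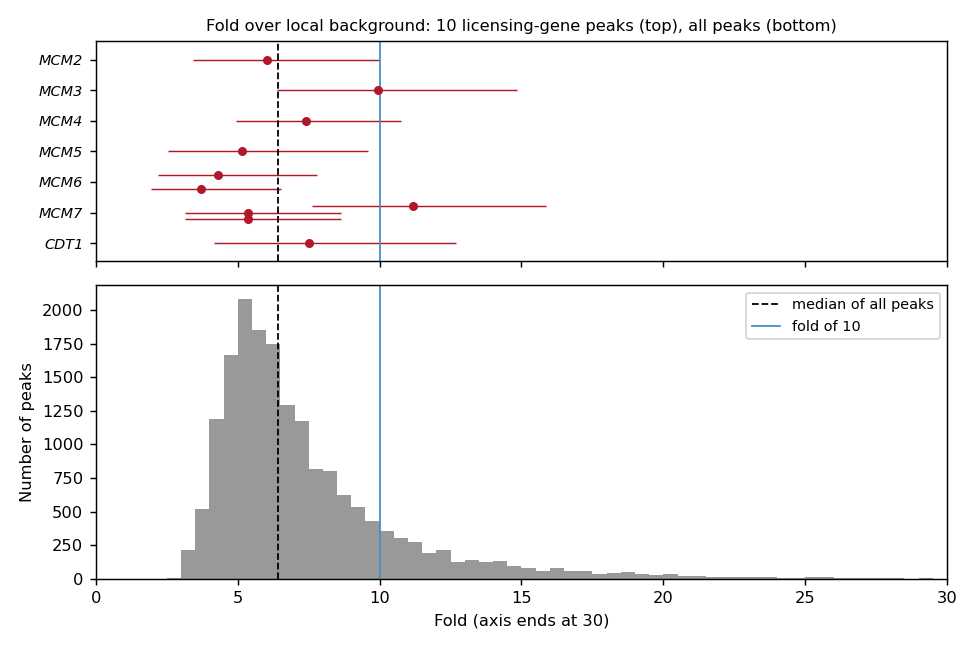
Fold over local background of the 10 member peaks by gene (top, bars for the fold at the ends of the Poisson interval of the ChIP count) and of all peaks (bottom, bins of fold up to 30, with 38 peaks at 30 or more not drawn). The dashed line marks the list's median of 6.40 and the blue line a fold of 10. Only an MCM7 peak lies beyond the blue line, and the 2 MCM6 peaks lie at the low end of the list.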

How the data were processed

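One ChIP and 1 input library were made, and the authors' peak list for the ChIP library was analysed. Per the submitters' processing notes, MACS2 2.1.0, Picard 2.7.1, SAMtools 1.3, STAR 2.5.2a and the build GRCh37 were used, in roles the notes leave out. The authors' deposited score is 10 times the −log10 q, rounded down. The authors' deposited fold is a ratio over local background, and the deposited −log10 p and −log10 q come from the peak caller. The lowest −log10 q was 1.31, and the filter applied to the list is not given in the sources used here.

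For each peak the whole pileup was found whose Poisson tail and fold, (pileup + 1) / (background + 1), give the deposited −log10 p. It matched within 0.001 for 100.0% of peaks. The pileup was also recovered for 100.0% of 484 simulated peaks, but these were made with the same formulas, so they check only the arithmetic. They did not reach the list's highest pileup of 210 fragments or highest background of 83.8. The library depths are otherwise unknown. Coordinates are GRCh37, 1-based. RefSeq (GRCh38.p14) gave promoter sequences, strands, gene lengths and distances between starts. Its coordinates were kept apart from those of the peaks. The genes, lists and words were chosen with earlier results of these data known, and the E2F and CCAAT words after the peaks were seen. All 10 members are named, and other genes where RefSeq shows them next to a member or from the list of 30. Alternatives were other distances, any overlap, stricter peaks, another peak per gene, other fold limits and other E-box words. Python 3.11.15, pandas 2.3.3 and SciPy 1.17.1 were used. Molecular identifiers are not mentioned in the sources used here, so intervals cover counting error of the ChIP fragments only.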

Additional observations from a re-analysis of the deposited data

How the results depend on the processing

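Of 21 alternatives, 11 left a count within 1.5 times or the median fold within its Poisson interval, and 10 moved it. Genes with a peak stayed at 7 with the summit within 1 or 2 kb and with any base of the peak within 5 kb, and numbered 8 within 10 kb. The peaks numbered 16 within 10 kb. Requiring a −log10 p at or above the list's median left 4 peaks of 4 genes, and at or above the upper quartile 3 peaks of 3 genes, because weaker peaks are removed by construction. With a fold of 8 or more 2 genes were counted, with 15 or more 0, and with 10 or more at the peak nearest the start 0 of 7, since the high MCM7 peak is not its nearest. The median fold per gene was between 6.03 and 9.01. CANNTG was in 5 of the 11 windows, against 68.7% of all, and a set chosen after seeing the data, with CACGCG and CATGTG beside CACGTG, was in 6, against 27.2%. No paired analysis was possible because there was 1 ChIP and 1 input library and no test between them. No replicate could be left out. Counts of 8 to 29 ChIP fragments and backgrounds of 0.731 to 2.64 scaled fragments limit the precision of every height and fold given.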

Other observations

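At MCM2, MCM4, MCM5, MCM7 and CDT1, stronger MYC peaks lay farther away than the peaks near their starts. The MCM2 one, 7120 bp upstream, is described above. MCM3 and MCM6 had no summit within 50 kb beyond those near their starts. Each peak given below had the highest fold within 50 kb of its start, and this choice favours high values. Of all positions spanned by the list, 29.3% had a summit within 50 kb, whatever its fold. How many of all peaks have a higher peak within 50 kb was not computed. Whether these genes differ from others in this is therefore unknown. At MCM4 a peak 47.4 kb downstream had 50 ChIP fragments over a background of 1.12, a fold of 24.0. At MCM7 a peak 19.8 kb downstream had 55 fragments over 1.98, a fold of 18.8, and at CDT1 a peak 30.7 kb upstream had 35 fragments over 1.03, a fold of 17.7. At MCM5 a peak 28.1 kb upstream had 29 fragments over 1.03, a fold of 14.8, against 5.14 at the start. At PCNA, which had no peak within 5 kb, a peak 13.6 kb downstream had 20 fragments over 0.768, a fold of 11.9. These peaks were not matched to genes, and whether they act on the licensing genes was not tested. MCM3 was the only gene with a peak that had no other summit within 100 kb.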
